A study of Homo sapiens with 12 samples.

Results

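The small protein UFM1 is attached to lysines of other proteins in the manner of ubiquitin, and UFL1 is the ligase that carries out that attachment. The transcriptomes of MDA-MB-231 cells carrying a guide RNA against UFM1 were set directly against those of cells carrying a guide against UFL1, as a comparison of loss of the modifier with loss of its ligase. MDA-MB-231 is an established line of triple-negative human breast cancer with mesenchymal features. Of the 12 libraries of the series, 6 enter this comparison: sgUFM1 replicates 1 to 3 and sgUFL1 replicates 1 to 3, chosen by the column names of the deposited FPKM table (fragment counts scaled to gene length and library size). The other 6 are control-guide libraries, 3 named as controls for each guide. All libraries were made from total RNA of the same line, and no drug or time course is named. The labels do not say whether a guide line was a clone or a pool, and the series text uses both knockdown and knockout. Separate cultures are not named either, and p-values therefore rest on a spread between libraries that could be technical only.

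The deposited count table names this sgUFL1 side as controls. Each FPKM column was matched to the count column proportional to it after correction for gene length, and the sgUFL1 columns of the FPKM table held the counts that stand under the names of controls for sgUFM1. The count columns named sgUFL1 stand in the FPKM table as those controls. The sgUFM1 libraries and the controls for sgUFL1 had the same names in both tables. In the text below sgUFL1 means the libraries so named in the FPKM table, and the direct comparison was run on their counts.

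In the UFM1 pathway, UFC1 carries the activated modifier, and UFL1 passes it on to substrates together with its partner DDRGK1 at the membrane of the endoplasmic reticulum (ER) and with CDK5RAP3. UFSP1 and UFSP2 are the proteases that process or remove it. The ribosomal large subunit stalled at the ER translocon is the best-known substrate, and the pathway is tied to clearance of stalled chains, to ER-phagy and to ER homeostasis.

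Library totals ran from 15342793 to 18033331 counts over the 12 libraries, 15342793 to 16168105 in sgUFM1 and 16028438 to 18033331 in sgUFL1. The 3 libraries of each of these groups resembled each other more than any library of another group: correlations of log2 CPM (counts scaled to library size) about the mean of all libraries, over 11053 genes, were 0.564 to 0.7 within sgUFM1 and 0.646 to 0.873 within sgUFL1. The controls did not group in that way. Replicate 1 of the controls for sgUFM1 correlated at -0.214 and -0.136 with the other replicates of its group and at 0.369 with replicate 1 of the controls for sgUFL1, and replicate 2 of the controls for sgUFL1 correlated at 0.16 and 0.411 with its own group. Levels in controls are therefore given as a range over the 6 libraries or by library. The mean GC content of counted transcripts was 49.99% to 50.46% in sgUFM1 and 50.63% to 51.16% in sgUFL1, with no overlap. The share of counts from the mitochondrial genome was 3.121% to 3.729% and 3.677% to 4.003%. Markers of the line were present: all 11 were tested, and their summed level was 922.4 to 971 FPKM in sgUFM1 and 850.9 to 888.3 FPKM in sgUFL1. Of 14 leukocyte markers, CD3E, MS4A1 and TYROBP stood at 0 in all 6 libraries and 2 passed the filter on low counts, with a summed level of 2.345 to 2.776 FPKM in sgUFM1 and 2.429 to 2.845 FPKM in sgUFL1.

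Both target transcripts were lower in the cells that carried the guide against them. UFL1 (ENSG00000014123, GRCh38 chromosome 6, 96521595 to 96555276, plus strand) stood at 4.47, 5.47 and 5.18 FPKM in sgUFM1 replicates 1 to 3 and at 2.78, 2.5 and 2.87 FPKM in sgUFL1 replicates 1 to 3. The groups did not overlap, and the log2 difference, sgUFM1 minus sgUFL1, was 0.90 (SE 0.12, edgeR quasi-likelihood test with Benjamini-Hochberg adjusted p = 2e-06). UFM1 (ENSG00000120686, chromosome 13, 38349849 to 38363619, plus strand) ran the other way, at 8.39, 8.97 and 8.92 FPKM against 11.6, 12.4 and 12.5 FPKM. Its log2 difference was -0.47 (SE 0.081, adjusted p = 7.7e-05), again with no overlap. With offsets that remove each library's trend on GC content and gene length, the difference was 0.63 for UFL1 and -0.76 for UFM1. UFL1 overlaps UFL1-AS1 on the other strand, and strand use in counting is not given in the sources used here. A transcript with a frameshift can still be counted, so these values do not measure protein.

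Of 7 further genes of the pathway, 2 were higher and 1 lower. ODR4, a membrane protein that works with UFSP2, was higher in sgUFM1 by 0.54 (SE 0.11, adjusted p = 0.00038), and UFSP2 by 0.34 (adjusted p = 0.012). CDK5RAP3 was lower at -0.49 (SE 0.14, adjusted p = 0.0068), and it missed the threshold in a single fit of all 12 libraries, whose error also takes in the spread of the controls (adjusted p = 0.226). With the offsets UFSP2 stood at 0.19 and did not pass (adjusted p = 0.11). Without sgUFM1 replicate 2 it also missed the threshold (adjusted p = 0.058). UFC1, DDRGK1, UFSP1 and SAYSD1 did not pass, with log2 differences of 0.11, -0.046, -0.42 and 0.11. Counting UFL1 and UFM1, 3 of these 9 genes were higher and 2 lower, and 2 of 9 were higher without sgUFM1 replicate 2. Over all tested genes 19.3% were higher and 18.7% lower.

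**Figure D1:**
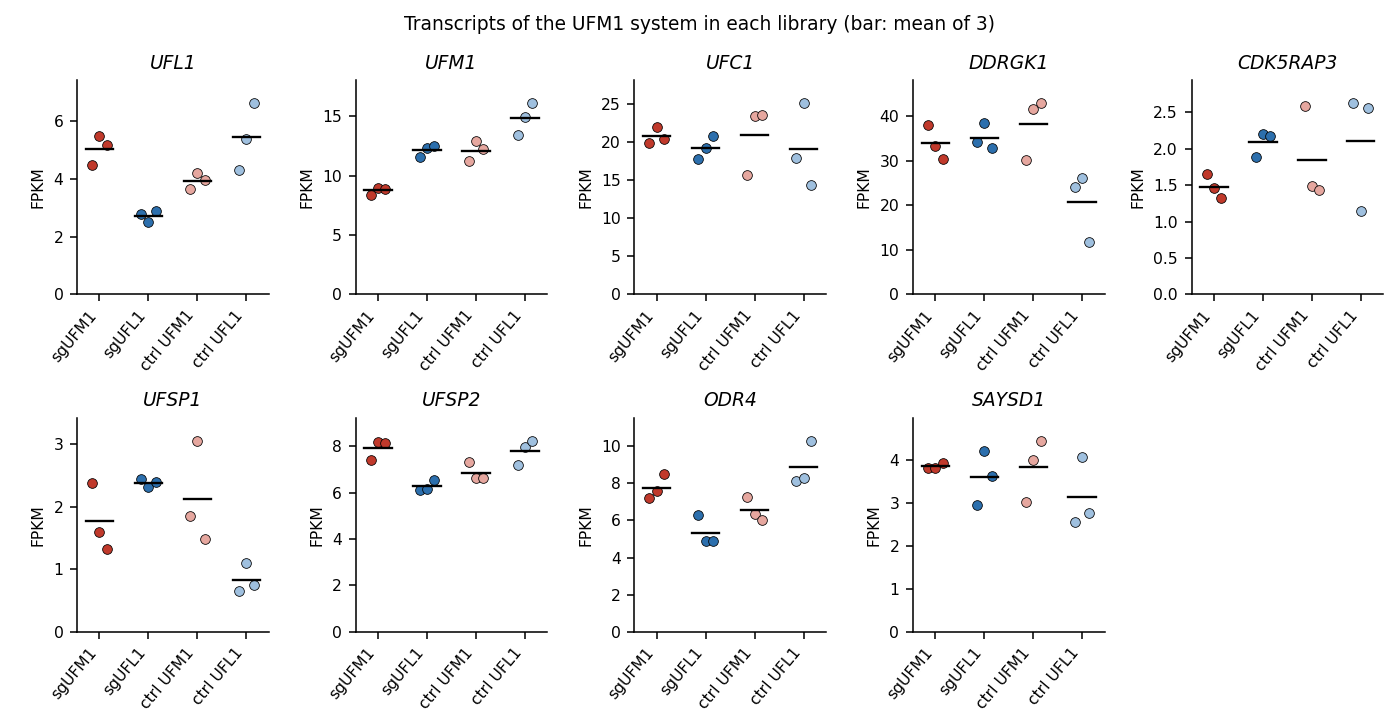
FPKM of 9 genes of the UFM1 system (vertical axis, from 0) in the 4 groups of the FPKM table, 1 point per library and a bar at the mean of 3. The 3 sgUFL1 points of UFL1 lie below the other 9 libraries, and the 3 sgUFM1 points of UFM1 lie below the other 9.

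Of 15083 genes tested, 2918 were higher in sgUFM1 than in sgUFL1 (19.3%) and 2824 lower (18.7%) at an adjusted p under 0.05, so 5742 genes, or 38.1%, passed. Most of these differences were small: 2266 of the higher and 1976 of the lower genes differed by less than 1.5-fold, and the median size among called genes was 0.412 in log2. At least 2-fold, 182 genes were higher (1.21%) and 322 lower (2.13%). The sgUFM1 and sgUFL1 libraries did not overlap in FPKM for 7047 genes, or 46.7% of those tested. GC content moved with the groups. Higher genes had a median GC content of 42.9%, lower genes 57.2% and genes not called 48.8%. Of the 3770 genes with the lowest GC content 39.6% were higher and 4.03% lower, and of the 3770 with the highest 4.8% were higher and 40.3% lower. With the GC and length offsets 2456 genes were higher (16.3%) and 2546 lower (16.9%), 33.2% together, and the 3770 genes of lowest GC content then held 14.1% higher and 17% lower. Of the 5742 calls, 3458 were made with the same sign under the offsets and 26 with the opposite sign. Counts with the offsets are therefore given beside those of the gene lists below. List counts are to be read against 19.3% higher and 18.7% lower over all tested genes, and 16.3% and 16.9% with the offsets.

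**Figure D2:**
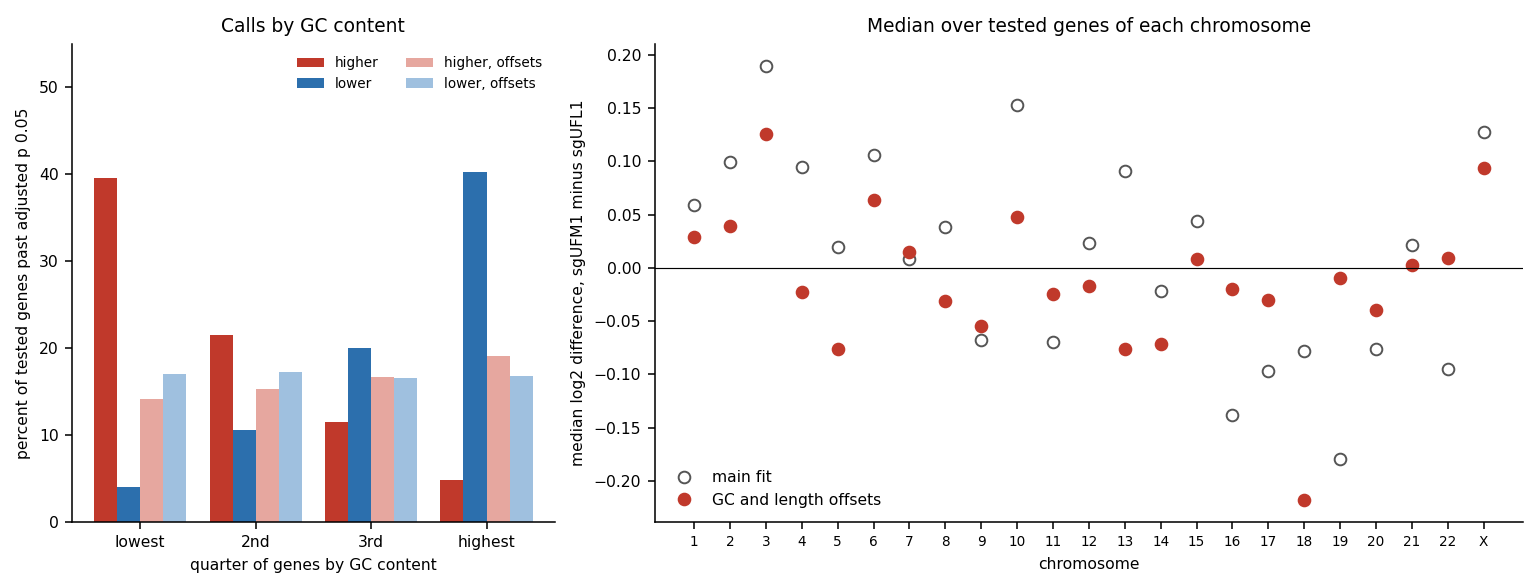
Left, percent of tested genes past adjusted p 0.05 (vertical axis) in 4 classes of equal size by GC content, higher and lower in sgUFM1, without and with offsets: the contrast of 39.6% with 4.03% in the lowest class becomes 14.1% and 17%. Right, median log2 difference (vertical axis) over the tested genes of each chromosome, open points without and filled points with offsets: chromosome 18 lies lowest at -0.218 with offsets and chromosome 3 highest at 0.126.

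Mucins and other products of secretory epithelium were among the largest rises in sgUFM1. MUC5AC, a gel-forming mucin of airway and stomach lining, stood at 30.96, 30.3 and 22.8 FPKM in sgUFM1 and 5.68, 3.57 and 3.85 FPKM in sgUFL1, a log2 difference of 2.68 (SE 0.26, adjusted p = 0.0016). Every sgUFM1 library lay above every sgUFL1 library, which the rule for naming the 12 largest rises required. More cells with a transcript and more transcript per cell cannot be told apart in bulk RNA. From here on, a value in parentheses or after a gene's name without a unit is the log2 difference, sgUFM1 minus sgUFL1. MUC2, the main mucin of the intestine, stood at 0.459, 0.423 and 0.299 against 0.107, 0.0708 and 0.0543 FPKM, and MUC5B, another airway mucin, at 3.38, 3.35 and 2.48 against 1.04, 0.627 and 0.625. Their log2 differences were 2.33 (SE 0.28, adjusted p = 7.7e-07) and 2.0 (SE 0.23, adjusted p = 0.00041). These 3 genes are neighbours on chromosome 11: MUC2 at 1074875 to 1110511, MUC5AC at 1157953 to 1201138 and MUC5B at 1223066 to 1262172. MUC15, a membrane mucin elsewhere on that chromosome, did not pass (0.14, adjusted p = 0.67). Of 14 mucin symbols, 4 passed the filter on low counts, and 3 of those 4 were higher, as with the offsets. In the single fit of all 12 libraries MUC5B missed the threshold at the same log2 difference (adjusted p = 0.0739). In the 6 controls MUC5AC ran from 3.69 to 6.04 FPKM, so that sgUFL1 lay near the controls and sgUFM1 above every one of them. MUC5B ran from 0.388 to 2.53 FPKM there and MUC2 from 0.0335 to 0.411, and the highest 3 controls for both were replicate 1 of the controls for sgUFM1 and replicates 1 and 3 of those for sgUFL1. Replicate 1 of the sgUFL1 group was the highest of its 3 libraries for each of the 3 mucins that rose.

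Transcription factors and secreted products of the same kind of cell moved with the mucins. EHF, an ETS factor of epithelial differentiation, stood at 2.09, 2.44 and 2.46 FPKM against 0.568, 0.396 and 0.356 FPKM (2.39, SE 0.20, adjusted p = 1.9e-09). SPDEF, the ETS factor that drives goblet cells, was at 30.9, 28.6 and 24.6 against 12.1, 13.2 and 13.3 FPKM (1.14, adjusted p = 2e-09). AGR2, an ER disulfide isomerase needed to fold mucins, was at 3.39, 3.27 and 3.41 against 0.838, 0.808 and 0.748 FPKM (2.07, adjusted p = 4.1e-09), and the trefoil peptide TFF3 at 12.97, 12.8 and 9.55 against 5.43, 4.66 and 5.46 (1.19, adjusted p = 1.8e-06). The groups did not overlap for any of these 4 genes, nor for 46.7% of all tested genes. For EHF and AGR2, which are among the 12 largest rises, the rule for naming genes required it. AGR2 ran from 0.933 to 2.18 FPKM over the controls, below sgUFM1 and above sgUFL1 in all 6. Of 20 symbols on the list of secretory epithelial factors 13 were tested, and 5 stood at 0 in all 6 libraries. Of the 13 tested 8 were higher and 2 lower, with a median of 0.883 against 0.0112 over all genes tested. The lowest value on the list was that of FOXA3 (-0.405). With the offsets 8 were higher and none of the 13 lower, with a median of 1.07. In the single fit of all 12 libraries SPDEF and TFF3 missed the threshold (adjusted p = 0.0661 and 0.139). The control libraries were uneven here: SPDEF ran from 5.3 to 20.9 FPKM over the 6 controls, with replicate 1 of the controls for sgUFM1 and replicates 1 and 3 of those for sgUFL1 the 3 lowest.

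SLC14A1, a urea transporter, was also among the 12 largest rises of protein-coding genes with at least 5 CPM in 1 group, at 1.03, 0.64 and 0.869 against 0.158, 0.234 and 0.305 FPKM (1.88, SE 0.25, adjusted p = 2.7e-06). By change in mean FPKM the largest rises were in abundant genes with small folds. IGFBP4, which binds insulin-like growth factors, stood at 1859, 1814 and 1797 FPKM against 1346, 1593 and 1541 (0.29, adjusted p = 0.00078), and IER3, an early-response gene of cell survival, at 889.9, 924 and 919 against 653, 775 and 732 (0.34, adjusted p = 0.00014). G0S2, an inhibitor of fat breakdown, was at 381, 356 and 368 against 213, 235 and 237 (0.70, adjusted p = 8.1e-09). The largest falls by this measure included TMSB10, which binds actin, at 1441, 1110 and 1075 against 1492, 1794 and 1669 FPKM (-0.44, adjusted p = 0.0041), and the ribosomal protein genes RPS2 and RPL13A (-0.35 and -0.31, adjusted p = 0.00031 and 0.00074). With the offsets TMSB10 and RPS2 stood at -0.26 and -0.084 and did not pass (adjusted p = 0.14 and 0.13). TMSB10 also missed the threshold without sgUFL1 replicate 1 (adjusted p = 0.0802). In the single fit of all 12 libraries IGFBP4, IER3, G0S2 and RPS2 missed it (adjusted p = 0.184, 0.0859, 0.217 and 0.107). Reads may be shared between overlapping genes: ESM1, BDKRB2, COL7A1, RPS2 and RPL13A overlap another gene on their own strand, and MUC5B, GBP5, TNS1, MYO1D, IER3, TMSB10, RPL35, MMP1 and UCA1 on the other strand.

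**Figure D3:**
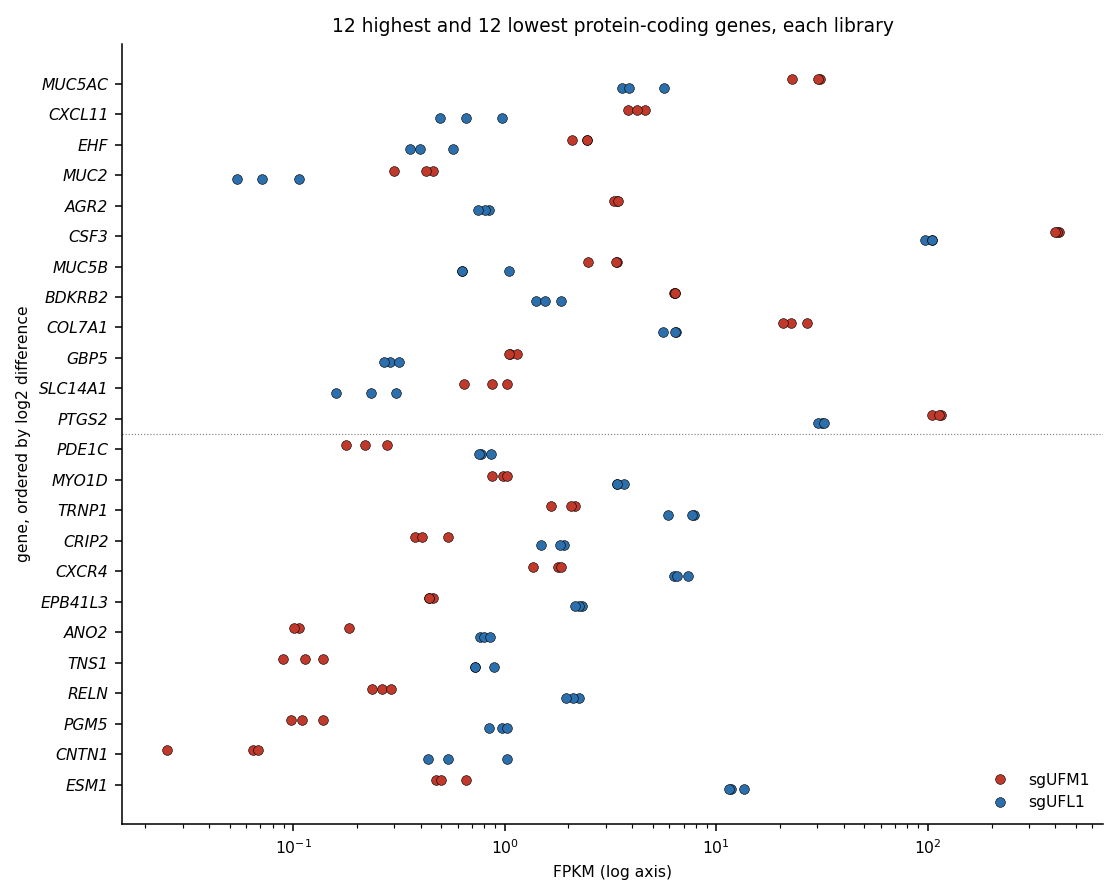
FPKM on a log axis (horizontal) of the 12 highest and 12 lowest protein-coding genes by log2 difference among those with at least 5 CPM in 1 group, with 1 point per library, red for sgUFM1 and blue for sgUFL1. For every gene shown the 3 red points and the 3 blue points do not overlap, a property that the rule for naming these genes required.

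Chemokines and other inflammatory mediators were among the genes higher in sgUFM1. The neutrophil-attracting chemokine CXCL1 stood at 247, 246 and 268 FPKM in sgUFM1 and 122, 131 and 136 in sgUFL1 (0.97, SE 0.064, adjusted p = 3.1e-11). Its neighbours of the same function, CXCL2 and CXCL3, differed by 1.32 (SE 0.093, adjusted p = 9.8e-11) and 1.2 (SE 0.094, adjusted p = 7.2e-10). CXCL11, which attracts T cells and is induced by interferon, was at 3.81, 4.58 and 4.2 against 0.653, 0.97 and 0.492 FPKM and had the largest difference on the list (2.56, SE 0.23, adjusted p = 6.3e-09). Of 21 chemokine symbols 12 were tested, 8 were higher and 1 lower, with a median of 1.04, and the counts were the same with the offsets. The growth factor of granulocytes CSF3 stood at 415, 406 and 399.6 FPKM against 97.03, 105 and 104 (2.0, SE 0.061, adjusted p = 1.3e-17). IL1B was at 217, 226 and 249.5 against 100.4, 111 and 112 FPKM (1.1, adjusted p = 4.7e-12) and IL6 at 13.1, 14.7 and 14.2 against 6.28, 6.91 and 6.56 (1.09, adjusted p = 2e-08). IL24, a cytokine of the IL10 family, went the other way at 35.6, 37.9 and 39.1 against 54.6, 59.8 and 63.9 FPKM (-0.66, adjusted p = 3.3e-07). Among 16 tested interleukins and colony-stimulating factors 5 were higher and 3 lower, and with the offsets 8 and 3. The single fit of all 12 libraries gave near-equal differences with larger errors for several of these genes. It placed CSF3 at 1.99 (SE 0.723, adjusted p = 0.0928), CXCL1 at 0.966 (SE 0.409, adjusted p = 0.135), CXCL11 at 2.55 (SE 0.992, adjusted p = 0.107) and IL24 at -0.667 (SE 0.379, adjusted p = 0.259), and none of these 4 passed in it.

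PTGS2, the inducible enzyme of prostaglandin synthesis, stood at 105, 116 and 113 FPKM against 31.7, 30.3 and 32.4 (1.83, SE 0.064, adjusted p = 1.1e-16), and BDKRB2, a bradykinin receptor, at 6.29, 6.41 and 6.35 against 1.41, 1.83 and 1.54 (2.0, SE 0.10, adjusted p = 5e-13). Of feedback genes and components of the NF-kB pathway, 8 of 23 tested were higher and 2 lower, with a median of 0.116, and 11 and 1 with the offsets. NFKBIZ, an inducible co-factor of NF-kB, differed by 0.63 (adjusted p = 2.3e-06) and the adhesion receptor ICAM1 by 0.49 (adjusted p = 4.9e-05). NFKBIB, an inhibitor of NF-kB, was lower at -0.54 (adjusted p = 5.2e-05). In controls these genes varied by library: CSF3 ran from 43.4 to 234 FPKM and CXCL1 from 102 to 267 FPKM over the 6 controls, a range that holds the sgUFL1 values of both genes and the sgUFM1 mean of CXCL1 but not of CSF3. What separates the control libraries was not tested.

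The start regions shown are those of the 3 called genes of smallest p with an NF-kB motif before the start. They were taken from the NF-kB, chemokine and interleukin lists, and all 3 are the neighbouring chemokine genes. The motif searched was GGGA, any 4 bases and CC on both strands, over 250 bases before to 50 after each start in RefSeq (GRCh38.p14), and capitals mark a match on the strand opposite to the gene. An overlapping match on the gene's own strand begins 1 base earlier in each of the 3 stretches.
CXCL1 (chr4:73869275-73869364, plus strand): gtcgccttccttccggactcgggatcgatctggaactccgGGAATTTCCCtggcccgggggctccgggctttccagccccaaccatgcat
CXCL2 (chr4:74099223-74099312, minus strand): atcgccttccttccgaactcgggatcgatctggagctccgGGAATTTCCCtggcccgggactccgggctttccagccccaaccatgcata
CXCL3 (chr4:74038718-74038807, minus strand): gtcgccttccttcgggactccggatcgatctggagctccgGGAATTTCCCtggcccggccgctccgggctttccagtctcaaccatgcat
The match in capitals begins 78 bases before the start in CXCL1 and CXCL3 and 77 bases before it in CXCL2, and its 10 letters were the same in the 3 genes. With the overlapping match counted, the window held 2 matches in CXCL1, 2 in CXCL2 and 3 in CXCL3, where the other one lies after the start. The motif was in 7 of 9 chemokine promoters (77.8%), 14 of 20 of the NF-kB list (70%) and 6 of 10 of the interleukin list (60%), against 31% of 10994 tested genes with a promoter in the table. Within these 3 lists together, 72.2% of promoters of higher genes and 66.7% of the others held it. Over all tested genes the share was 31.5% for higher, 33.9% for lower and 29.8% for genes not called.

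Interferon-stimulated genes, which encode antiviral effectors, held 23 higher and 3 lower members. IFIT1, which binds viral RNA, stood at 14.5, 16.4 and 17.9 FPKM against 5.88, 5.7 and 6.21 (1.46, SE 0.089, adjusted p = 8.2e-12). Its relatives IFIT2 and IFIT3 differed by 1.06 (SE 0.082, adjusted p = 5.3e-10) and 1.08 (SE 0.076, adjusted p = 1.2e-10). OASL, of the 2-5A synthetase family, was at 10.5, 10.1 and 11.1 against 4.24, 4.94 and 4.38 FPKM (1.23, adjusted p = 1e-09), and the GTPase GBP5 at 1.06, 1.14 and 1.04 against 0.286, 0.317 and 0.269 (1.9, adjusted p = 2.6e-08). The median of the 48 tested members was 0.251. With the offsets 26 were higher and none of the 48 lower, with a median of 0.324. The largest difference on the list was that of RSAD2, an antiviral enzyme, at 1.82 (SE 0.22, adjusted p = 8.3e-07). ISG15, the ubiquitin-like modifier of this response, did not pass (0.036, adjusted p = 0.74) and stood at 0.46 with the offsets (adjusted p = 8e-09). TLR3, a sensor of double-stranded RNA, was at 1.64, 1.59 and 1.86 FPKM against 0.878, 0.634 and 0.577 (1.28, adjusted p = 2.3e-06). Genes of MHC class I presentation were mixed, 5 of 18 higher and 2 lower, with 7 and 2 under the offsets, and ERAP1, which trims peptides in the ER, was higher by 0.66 (adjusted p = 2.9e-07). In the single fit of all 12 libraries IFIT2, IFIT3 and OASL missed the threshold (adjusted p = 0.117, 0.0907 and 0.054). Here too the controls spread widely, IFIT1 running from 5.87 to 17.4 FPKM over the 6 libraries.

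The interferon-stimulated response element, searched as GAAA, any 2 bases and GAAA on both strands, is shown in 3 of the genes that were higher, with the match nearest to the start in capitals, on the strand opposite to the gene. IFIT1 and IFIT3 each hold a second match on that strand, left in lower case.
IFIT1 (chr10:89392480-89392569, plus strand): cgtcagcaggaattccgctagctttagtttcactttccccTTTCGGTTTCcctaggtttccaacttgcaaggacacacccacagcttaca
IFIT3 (chr10:89327835-89327924, plus strand): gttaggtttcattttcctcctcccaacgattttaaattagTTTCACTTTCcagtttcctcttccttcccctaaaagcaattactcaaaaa
IFI44 (chr1:78649731-78649788, plus strand): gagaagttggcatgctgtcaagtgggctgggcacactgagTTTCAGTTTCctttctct
The match in capitals begins 103, 122 and 18 bases before the start in that order, and the second match begins 116 bases before it in IFIT1 and 156 in IFIT3. IFI44 differed by 0.76 (SE 0.09, adjusted p = 6.1e-07). The element was in 26 of 38 promoters of the interferon list (68.4%) against 2.82% of all tested genes. Within the list the share was 76.5% of 17 higher genes and 61.9% of 21 others. Over all tested genes it was 3.71% of higher, 1.96% of lower and 2.79% of genes not called.

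Genes that serve the ER held more higher than lower members in sgUFM1 at each step from entry to export. Proteins enter through the SEC61 channel, are glycosylated and folded by chaperones, and leave in COPII-coated vesicles or are returned for degradation. For entry, SEC61A1, the channel itself, stood at 113, 110.3 and 115 FPKM against 75, 80.1 and 79.3 (0.53, SE 0.058, adjusted p = 1.9e-07). SEC63, which assists post-translational entry, and SSR1, a translocon-associated subunit, differed by 0.78 (adjusted p = 9.4e-08) and 0.73 (adjusted p = 3.9e-08). Of 38 translocon and signal recognition genes 16 were higher and 5 lower. In glycosylation, the catalytic subunit STT3B was at 73.4, 79.7 and 86.1 against 57.7, 54.9 and 55.3 FPKM (0.51, adjusted p = 1.4e-06), and UGGT1, the folding sensor, was higher by 0.54 (adjusted p = 8.9e-06). Of 35 such genes 18 were higher and 3 lower.

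CANX, the lectin chaperone calnexin, stood at 256, 271 and 293 FPKM against 182, 180.0 and 175 (0.62, SE 0.062, adjusted p = 4.8e-08). HSP90B1, the ER member of the HSP90 family, was at 193, 200.1 and 202 against 139, 134 and 130.2 (0.57, SE 0.059, adjusted p = 8.9e-08). PDIA3, a disulfide isomerase, and DNAJC3, a co-chaperone, differed by 0.56 (adjusted p = 1.8e-07) and 0.85 (adjusted p = 2.9e-07). HSPA5, the main ER chaperone BiP, differed by 0.21 (SE 0.058, adjusted p = 0.0056), and CALR, calreticulin, by -0.0033 (adjusted p = 0.98). HSPA5 missed the threshold in the single fit of all 12 libraries at a similar difference (0.201, adjusted p = 0.161). Of 28 chaperones and folding enzymes 18 were higher and 2 lower, with a median of 0.332. One of the 2 lower genes, SDF2L1, had a difference of -0.46 without and 0.0078 with the offsets. The COPII coat subunit SEC24D stood at 10.3, 9.79 and 9.82 FPKM against 5.06, 4.88 and 4.36 (1.07, SE 0.078, adjusted p = 2.3e-10), and SEC24A and SEC31A differed by 0.75 and 0.59 (adjusted p = 5.3e-07 and 5.5e-07). Of 30 COPII and export genes 19 were higher and 2 lower. In ER-associated degradation the mannosidase-like EDEM3 and EDEM1 were higher by 0.74 (adjusted p = 4.1e-08) and 0.69 (adjusted p = 1.3e-07), and 12 of 26 were higher and 1 lower. The summed level of the 28 chaperone genes was 2037, 1982 and 2081 FPKM in sgUFM1 and 1620, 1750 and 1705 in sgUFL1. In the 6 controls it ran from 1574 to 1962.

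The offsets left these counts close: 17 higher and 2 lower for translocon genes, 16 and 2 for glycosylation, 19 and 0 of 28 for chaperones, 16 and 2 for export, and 12 and 0 of 26 for degradation. The chaperone median was 0.182 with them. Sensors and transcription factors of the unfolded protein response were higher in 7 of 16 and lower in 0 of 16, and in 8 and 0 with the offsets. XBP1, the factor spliced by the sensor IRE1, stood at 25.2, 26.1 and 26.6 FPKM against 16.3, 19.8 and 18.4 (0.53, SE 0.08, adjusted p = 1.7e-05). The gene of IRE1 itself, ERN1, differed by 0.39 (adjusted p = 0.0012) and CREB3L2, a membrane-bound factor of the secretory pathway, by 0.47 (adjusted p = 1.4e-05). Targets of ATF4 were 8 of 28 higher and 4 lower with a median of 0.0438, and 5 were higher without sgUFM1 replicate 2. With the offsets 9 were higher and 2 lower, with a median of 0.137. VEGFA, which several stress pathways share, was at 67.1, 61.8 and 60.02 FPKM against 29.03, 31.1 and 29.4 (1.08, SE 0.062, adjusted p = 2.3e-12), GDF15 was higher by 0.46 (adjusted p = 0.00053) and ATF3 lower at -0.69 (adjusted p = 0.002). Receptors and regulators of ER-phagy were 5 of 20 higher and 2 lower, 6 and 3 with the offsets, and 3 were higher without sgUFM1 replicate 2. That is 25% higher and 10% lower, where 19.3% and 18.7% of all tested genes were.

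The ER stress element, the motif bound by ATF6 with NF-Y, was searched as CCAAT, any 9 bases and CCACG on both strands. It is shown in 3 genes of the chaperone list that were higher, with the match in capitals.
CANX (chr5:179698738-179698836, plus strand): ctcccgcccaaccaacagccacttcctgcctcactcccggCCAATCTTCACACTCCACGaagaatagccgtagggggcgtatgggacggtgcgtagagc
HSP90B1 (chr12:103930281-103930379, plus strand): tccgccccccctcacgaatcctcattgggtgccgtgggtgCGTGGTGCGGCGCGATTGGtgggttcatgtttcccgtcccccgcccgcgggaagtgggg
ERO1B (chr1:236282143-236282208, minus strand): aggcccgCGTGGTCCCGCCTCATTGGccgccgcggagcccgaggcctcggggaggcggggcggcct
The match is on the strand of the gene in CANX, beginning 151 bases before the start, and on the opposite strand in HSP90B1 and ERO1B, beginning 89 and 243 bases before it. HSP90B1 held 2 matches. ERO1B, an oxidase of the folding machinery, differed by 0.47 (adjusted p = 0.004) and by 0.18 with the offsets (adjusted p = 0.24). Within the chaperone and degradation lists together, 14.8% of 27 promoters of higher genes and 10.5% of 19 others held the element. It was in 6 of 26 chaperone promoters (23.1%), in 0 of 20 promoters of the degradation list and in 14 of 10994 tested promoters (0.127%). Those 14 were CANX, EIF2A, ERO1B, HSP90B1, HSPA5, SERP1 and XBP1, which were higher, and ALG12, CALR, CRELD2, FICD, TMEM120A, TRIM5 and ZNF17, which were not called. SERP1, which stabilises membrane proteins during translocation, differed by 0.36 (adjusted p = 6.2e-05) and EIF2A, an initiation factor, by 0.28 (adjusted p = 0.0019). EIF2A did not pass with the offsets (0.0445, adjusted p = 0.524) or in the single fit of all 12 libraries (adjusted p = 0.193). None of the 14 passed as lower. Over all tested genes 19.3% were higher and 18.7% lower. Among those not called, TMEM120A, TRIM5, CRELD2 and ALG12 stood at -0.27, -0.26, -0.21 and -0.18. CALR stood at -0.0033, and FICD and ZNF17 at 0.26 and 0.11.

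**Figure D4:**
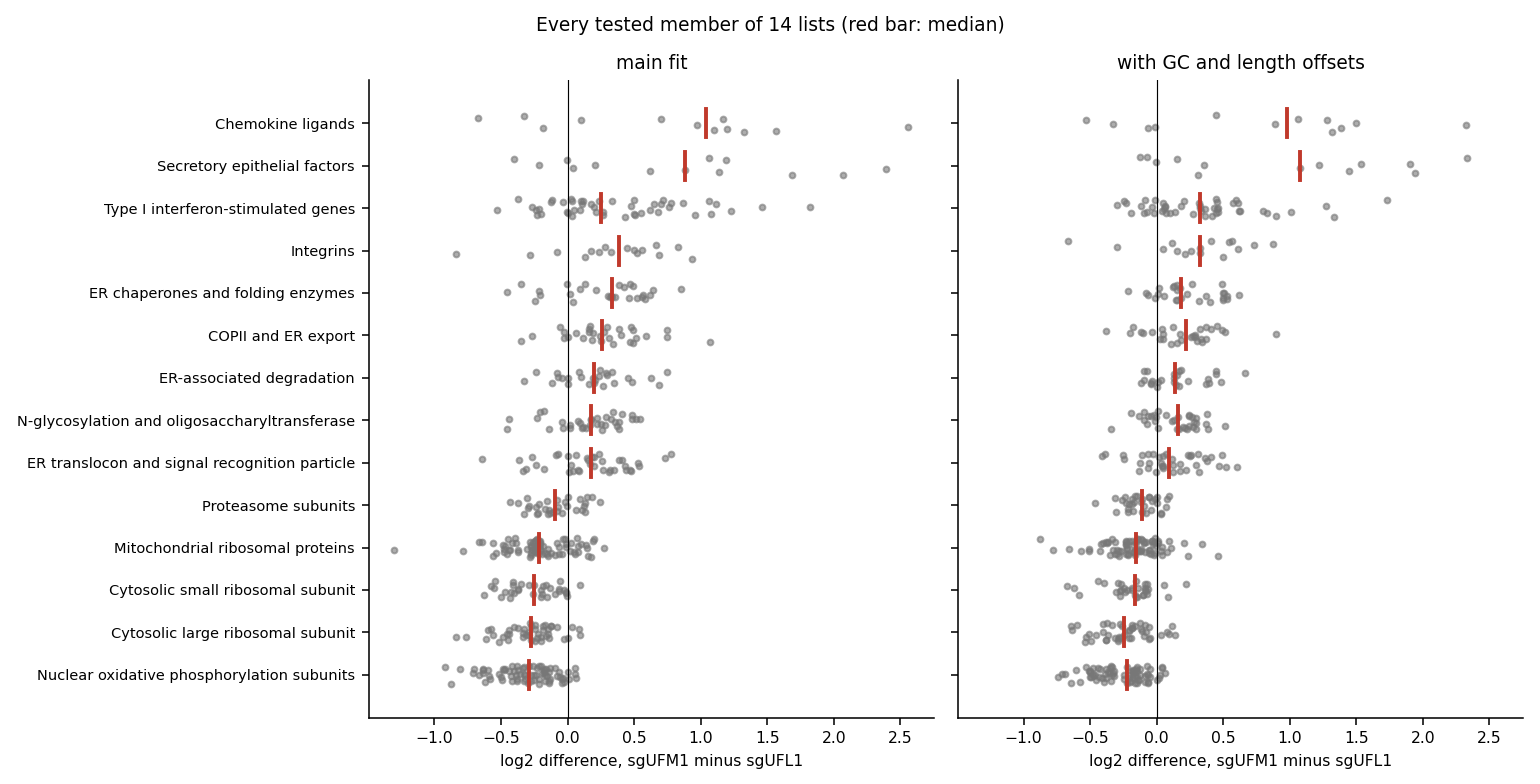
Log2 difference, sgUFM1 minus sgUFL1 (horizontal axis), of every tested member of 14 gene lists, 1 grey point per gene and a red bar at the list median, without offsets on the left and with them on the right. The median of chemokines is 1.04 and that of chaperones 0.332 without offsets, and the ribosomal and oxidative phosphorylation lists lie below 0 in both panels.

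Genes for ribosomal proteins and the respiratory chain held many lower and almost no higher members. RPL8, a protein of the large subunit, stood at 594, 527 and 526 FPKM against 878, 1072 and 1004 (-0.84, SE 0.069, adjusted p = 2.3e-09), and RPL35, at the exit of the large subunit's tunnel, at 480.2, 404 and 417 against 664, 771 and 784 (-0.76, SE 0.071, adjusted p = 2.6e-08). Of 45 large-subunit genes 0 were higher and 33 lower, with a median of -0.272. Of 33 small-subunit genes 0 were higher and 21 lower, with a median of -0.25, and RPS21 and RPS3 differed by -0.63 and -0.58 (adjusted p = 4e-08 and 3.4e-07). The summed level of the large subunit was 11650, 10860 and 11520 FPKM in sgUFM1 and 12900, 14690 and 14850 in sgUFL1, without overlap. In the 6 controls the sum ran from 8778 to 13090, so every sgUFM1 library lay within the range of the controls while 2 of the 3 sgUFL1 libraries lay above it. With the offsets 1 large-subunit gene was higher and 30 lower, and 1 small-subunit gene higher and 19 lower. Many ribosomal protein genes have pseudogene copies, and the counts can be split between them.

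Of 75 tested nuclear genes for subunits of oxidative phosphorylation 0 were higher and 47 lower, with a median of -0.288, and the offsets gave 0 and 45. The summed level of the list was 3664, 3376 and 3530 FPKM in sgUFM1 and 4055, 4632 and 4612 in sgUFL1. In the controls it ran from 3200 to 4188. Every sgUFM1 library thus lay within the range of the controls, and sgUFL1 replicates 2 and 3 lay above it. CYC1, cytochrome c1, stood at 112, 104 and 107 FPKM against 167, 205 and 195 (-0.81, SE 0.068, adjusted p = 2.8e-09), and NDUFV1, which holds the NADH site of complex I, at 20.8, 18.5 and 18.1 against 28.2, 33.7 and 32.3 (-0.71, SE 0.075, adjusted p = 1.2e-07). Of 77 mitochondrial ribosomal proteins 1 was higher and 38 lower, and 2 and 33 with the offsets. Without sgUFM1 replicate 2, sgUFL1 replicate 2 or sgUFL1 replicate 3 the lower members were 21, 22 and 24. MRPS2 differed by -0.67 (adjusted p = 3.9e-07). Mitochondrial ribosomal proteins summed to 2018, 1914 and 1971 FPKM in sgUFM1 and 2193, 2527 and 2452 in sgUFL1. The controls ran from 1806 to 2383, with sgUFM1 inside that range and sgUFL1 replicates 2 and 3 above it. Protein genes of the mitochondrial genome were lower in 5 of 13 and higher in 0 of 13, and lower in 3 without sgUFM1 replicate 1 or 2. With the offsets 6 were lower and 0 higher. MT-ND3 and MT-ATP6 differed by -0.47 and -0.39 (adjusted p = 4e-06 and 1.6e-05), while the share of mitochondrial counts overlapped between the groups. Proteasome subunits were 2 of 32 higher and 10 lower, and 0 and 12 with the offsets. Translation factors were 8 of 39 higher and 12 lower, and 3 and 18 with the offsets. Leaving out sgUFL1 replicate 2 or 3 or sgUFM1 replicate 2 or 3 left 5 higher. EIF5A differed by -0.49 (adjusted p = 4.3e-06) and EIF4G2 by 0.40 (adjusted p = 2.6e-05). EIF5A missed the threshold in the single fit of all 12 libraries at a similar difference (-0.498, adjusted p = 0.0959).

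**Figure D5:**
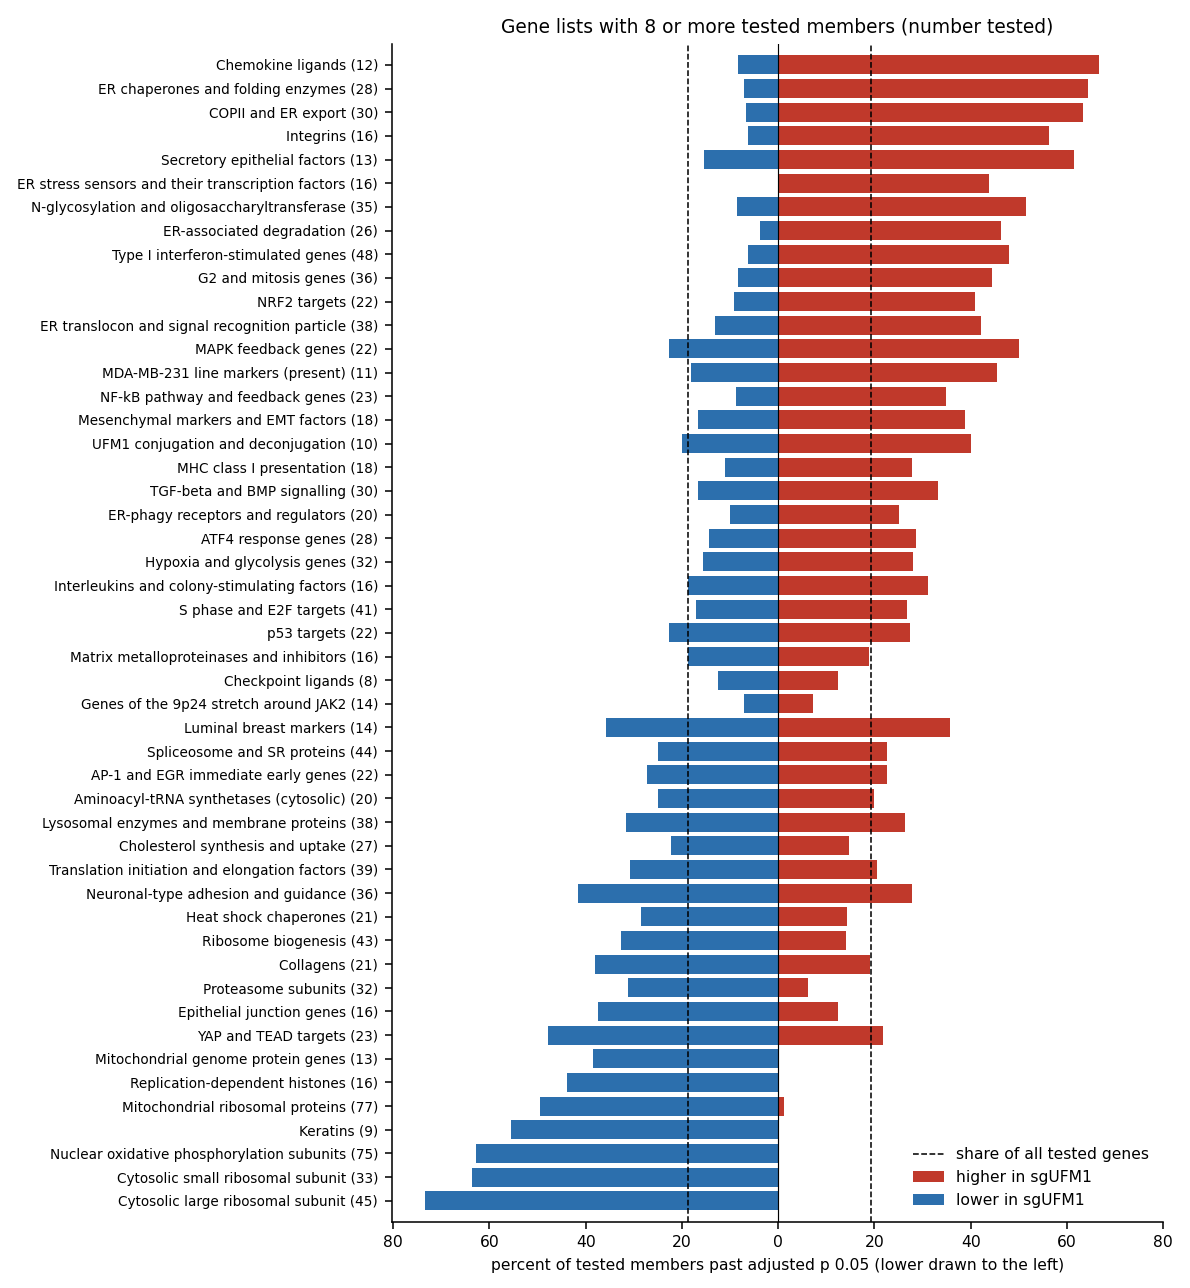
Percent of tested members of each gene list past adjusted p 0.05 (horizontal axis), higher in sgUFM1 to the right in red and lower to the left in blue, with dashed lines at the 19.3% and 18.7% of all tested genes. Chemokines reach 66.7% higher and the large ribosomal subunit 73.3% lower.

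The lowest 12 log2 differences of protein-coding genes with at least 5 CPM in 1 group included genes of adhesion, matrix and migration. ESM1 (chromosome 5, 54977864 to 55022671), a secreted proteoglycan best known from endothelium, stood at 0.472, 0.497 and 0.655 FPKM in sgUFM1 and 11.7, 13.5 and 11.5 FPKM in sgUFL1, a log2 difference of -4.49 (SE 0.16, adjusted p = 1.1e-16). All 6 controls had 7.35 to 18.3 FPKM, so the sgUFL1 values lay among the controls and those of sgUFM1 below every one of them. RELN, a secreted guidance protein, was at 0.235, 0.262 and 0.289 against 2.23, 2.1 and 1.94 (-2.99, SE 0.14, adjusted p = 5.9e-14), with controls at 1.07 to 2.64 FPKM. The neural adhesion molecule CNTN1 was low in both groups, 0.0647, 0.0681 and 0.0252 against 1.02, 0.539 and 0.434 FPKM (-3.63, SE 0.40, adjusted p = 6.2e-07). EPB41L3, which links membrane proteins to the cytoskeleton, was at 0.457, 0.439 and 0.439 against 2.31, 2.23 and 2.14 (-2.32, adjusted p = 5e-13), and with controls at 5.04 to 6.76 FPKM it was below the controls in both guide groups. CXCR4, the receptor of CXCL12 in cell homing, was at 1.36, 1.78 and 1.84 against 6.33, 7.31 and 6.5 (-2.01, SE 0.16, adjusted p = 6.9e-10).

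For TNS1 and ANO2 the sgUFL1 libraries stood above all controls. TNS1, a focal adhesion protein, was at 0.138, 0.114 and 0.089 FPKM in sgUFM1, 0.888, 0.723 and 0.722 in sgUFL1 and 0.135 to 0.399 over the controls (-2.77, SE 0.19, adjusted p = 6.9e-11). ANO2, a calcium-activated chloride channel, was at 0.107, 0.184 and 0.101, 0.762, 0.798 and 0.85 and 0.184 to 0.411 FPKM in the same order (-2.61, adjusted p = 1e-07). PGM5, a muscle-type phosphoglucomutase relative, had controls in 2 sets: it was at 0.0979, 0.138 and 0.11 FPKM in sgUFM1 and 0.839, 0.974 and 1.02 in sgUFL1 (-3.02, adjusted p = 1e-09), with 3 of 6 controls at 2.38 or more and 3 at 0.139 or less. It missed the threshold in the single fit of all 12 libraries (-3.03, SE 1.52, adjusted p = 0.208). CRIP2, TRNP1, MYO1D and PDE1C were the other 4 of these 12 genes, at -1.98, -1.85, -1.85 and -1.82, with adjusted p of 5.9e-08 or less.

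Collagens and matrix proteases held members of both directions, and integrins held more higher than lower ones. Of 16 tested matrix metalloproteinases and inhibitors 3 were higher and 3 lower, and 3 and 4 with the offsets. That is 18.8% in each direction without offsets, where 19.3% of all tested genes were higher and 18.7% lower. COL7A1, the anchoring-fibril collagen, stood at 26.9, 22.5 and 20.6 FPKM against 6.42, 6.36 and 5.63 (1.93, SE 0.087, adjusted p = 9.5e-13), while COL8A1 was at 7.96, 7.67 and 7.62 against 14.4, 15.2 and 14.7 (-0.92, SE 0.068, adjusted p = 2.8e-10) and COL12A1 differed by -0.90 (adjusted p = 1.1e-07). Of 21 collagens 4 were higher and 8 lower, and 6 and 7 with the offsets. Integrins, the receptors for matrix, were 9 of 16 higher and 1 lower, with a median of 0.385, and 10 and 1 with the offsets. The collagen-binding ITGA1 and ITGA2 differed by 0.93 (adjusted p = 9.7e-08) and 0.83 (adjusted p = 3.1e-06), and their partner ITGB1, at 134, 146 and 151 against 101, 96.04 and 95.9 FPKM, by 0.56 (adjusted p = 2.3e-07). The collagenase MMP1 was at 499, 518 and 556 FPKM against 824, 906 and 910.0 (-0.74, SE 0.062, adjusted p = 2.1e-09). All 6 controls held 2963 to 3727 FPKM, so MMP1 was below every control in both guide groups and lowest in sgUFM1. MMP14, the membrane collagenase, and the inhibitor TIMP1 were higher by 0.72 (adjusted p = 6.6e-09) and 0.67 (adjusted p = 4.8e-08), and neither passed in the single fit of all 12 libraries (adjusted p = 0.189 and 0.113). Among 36 genes of neuronal-type adhesion and guidance 10 were higher and 15 lower, and 13 and 13 with the offsets. L1CAM stood at -1.52 (adjusted p = 1.5e-07) and NRP1, a co-receptor of semaphorins and VEGF, at 0.75 (adjusted p = 4.7e-09).

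Keratins, the filaments of epithelium, were lower in 5 of 9 and higher in 0 of 9. KRT7 was at 46.05, 42.9 and 40.1 FPKM against 68.05, 79.8 and 76.04 (-0.79, SE 0.069, adjusted p = 4.8e-09), and KRT8 and KRT19 differed by -0.60 and -0.53 (adjusted p = 3.1e-07 and 1.8e-06). With the offsets 2 keratins were higher and 5 lower. Epithelial junction genes were 2 of 16 higher and 6 lower, and 1 and 5 with the offsets. Mesenchymal markers were 7 of 18 higher and 3 lower, and 8 and 3 with the offsets.

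Signalling lists held members of both directions, where 19.3% of all tested genes were higher and 18.7% lower (16.3% and 16.9% with the offsets). Among 22 feedback genes of the MAPK pathway 11 were higher and 5 lower, and 7 were higher without sgUFL1 replicate 2 or 3 or sgUFM1 replicate 3. With the offsets 13 were higher and 3 lower. The phosphatase DUSP1 stood at 30.4, 31.6 and 31.5 FPKM against 77.2, 92.4 and 90.2 (-1.47, SE 0.075, adjusted p = 3.1e-13), with the related DUSP14 at -0.59 (adjusted p = 2.4e-06). The Ras-pathway inhibitors SPRED1 and SPRY4 ran the other way at 0.57 and 0.55 (adjusted p = 6.1e-07 and 2.8e-07). MYC, a growth-promoting transcription factor, was at 23.9, 20.2 and 22.6 FPKM against 45.5, 51.9 and 49.96 (-1.14, SE 0.076, adjusted p = 4.3e-11), and JUN differed by -0.46 (adjusted p = 7.6e-06). Immediate early genes were 5 of 22 higher and 6 lower, and 11 and 5 with the offsets. In TGF-beta signalling the latent binding protein LTBP1 was at 25.1, 25.4 and 25.4 FPKM against 10.9, 11.3 and 10.2 (1.23, SE 0.068, adjusted p = 1.2e-12). The receptors TGFBR1 and TGFBR2 were higher by 0.70 and 0.47 (adjusted p = 1.8e-07 and 1.7e-06), and ID3, an inhibitor of differentiation factors, stood at -0.78 (adjusted p = 9.2e-06). Of 30 genes of that pathway 10 were higher and 5 lower, and 14 and 6 with the offsets. Targets of YAP and TEAD were 5 of 23 higher and 11 lower, and 6 and 8 with the offsets, with ANKRD1 at -0.58 and the co-activator WWTR1 at 0.64 (adjusted p = 1.2e-07 and 5.7e-07).

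Genes of G2 and mitosis were 16 of 36 higher and 3 lower, and 13 and 7 with the offsets. The spindle motor KIF11 differed by 0.63 (adjusted p = 6.4e-07) and CDC20, an activator of the anaphase complex, by -0.42 (adjusted p = 2.1e-05). S-phase and E2F genes were 11 of 41 higher and 7 lower, and 4 were lower without sgUFL1 replicate 2 or 3 or sgUFM1 replicate 2. With the offsets 14 were higher and 3 lower. Replication-dependent histones were 7 of 16 tested lower and 0 higher, and 5 and 1 with the offsets. HIST1H1C stood at 106, 109.7 and 116 FPKM against 200.2, 218 and 231 (-0.96, adjusted p = 4.5e-10). It missed the threshold in the single fit of all 12 libraries at a similar difference (-0.972, adjusted p = 0.0547). Targets of NRF2, the antioxidant factor, were 9 of 22 higher and 2 lower, and 10 and 1 with the offsets, with NFE2L2 itself at 0.58 (adjusted p = 2.9e-06). Targets of p53 were 6 of 22 higher and 5 lower, and 6 and 3 with the offsets, GADD45A at -0.99 and CDKN1A at 0.36 (adjusted p = 6.2e-08 and 0.00022). CDKN1A missed the threshold in the single fit of all 12 libraries (adjusted p = 0.153). Further lists held members in both directions. Several lists of this paragraph lay near the shares over all tested genes, 19.3% higher and 18.7% lower. With the offsets those shares were 16.3% and 16.9%. Hypoxia genes were 9 of 32 higher and 5 lower, with the same counts under the offsets. Cholesterol synthesis had 4 of 27 higher and 6 lower, and 7 and 5 with the offsets. Spliceosome genes were 10 of 44 higher and 11 lower, and 7 and 15 with the offsets. Of tRNA synthetases 4 of 20 were higher and 5 lower, and 4 and 7 with the offsets. Lysosomal genes were 10 of 38 higher and 12 lower, and 12 and 8 with the offsets. Heat shock chaperones were 3 of 21 higher and 6 lower, and 2 and 8 with the offsets. Ribosome biogenesis had 6 of 43 higher and 14 lower, and 2 and 13 with the offsets. Checkpoint ligands were 1 of 8 higher and 1 lower, and 2 and 1 with the offsets. Genes of the 9p24 stretch around JAK2 were 1 of 14 higher and 1 lower, and 0 and 3 with the offsets. Without sgUFL1 replicate 1, 10 genes each of the hypoxia and cholesterol lists were lower. Luminal breast markers were 5 of 14 higher and 5 lower without and with the offsets, the higher ones including AGR2, SPDEF, TFF3 and XBP1, which also stand on other lists here.

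Among genes of other types the long noncoding RNA UCA1, named for urothelial cancer, stood at 1.2, 0.845 and 1.31 FPKM against 9.11, 8.98 and 8.42 (-2.98, SE 0.13, adjusted p = 2e-14), with controls at 6.03 to 14.5 FPKM, all above sgUFM1. LINC01929, LINC02407 and CASC8 were lower at -1.93, -1.62 and -1.43 (adjusted p = 1.5e-08, 3.3e-06 and 2.5e-06), and LINC01929 missed the threshold in the single fit of all 12 libraries (adjusted p = 0.075). LINC00996, ZMIZ1-AS1 and NUTM2B-AS1 were higher by 1.69, 1.43 and 1.17, and the constant region of the T-cell receptor alpha locus, TRAC, was at 16.6, 17.1 and 21.96 FPKM against 6.6, 7.41 and 8.27 (1.33, SE 0.14, adjusted p = 1.3e-07). CD3E, the T-cell marker of the leukocyte list, did not pass the filter on low counts, and the 2 leukocyte markers tested were CSF1R (0.82, adjusted p = 0.028) and CD14 (-0.42, adjusted p = 0.17). CSF1R was at 0.576, 0.632 and 0.624 FPKM against 0.21, 0.305 and 0.534, and its adjusted p was 0.136 without sgUFL1 replicate 1, 0.0838 without sgUFL1 replicate 2, 0.0735 without sgUFM1 replicate 2 and 0.0818 without sgUFM1 replicate 3. It also missed the threshold by DESeq2 (adjusted p = 0.0505), by limma on FPKM with each of 3 pseudocounts (0.148 to 0.181) and in the single fit of all 12 libraries (0.29). Endothelial and fibroblast markers summed to 6.754 to 7.34 FPKM in sgUFM1 and 5.097 to 5.425 FPKM in sgUFL1, with DCN and LUM at 0 in all 6 libraries. Of these 14 markers 6 were tested, and PECAM1, an endothelial adhesion molecule, stood at 3.23, 3.26 and 3.77 FPKM against 1.39, 1.14 and 1.2 (1.46, adjusted p = 1.3e-09) while KDR and COL3A1 were lower at -0.98 and -1.77 (adjusted p = 0.00064 and 0.0052). The part of other cells in these values was not tested.

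Position along the genome also separated the groups. With the offsets the median log2 difference over the 224 tested genes of chromosome 18 was -0.218 (-0.0779 without them). There 95 genes were lower (42.4%) and 8 higher, against 16.9% lower over all genes. Without the offsets 56 were lower (25%) and 19 higher, against 18.7% lower over all genes. Chromosome 19 then had the largest share of lower genes, 34.3%. Lower genes under the offsets were spread along chromosome 18. Of 63 tested genes in the first 20 Mb 22 were lower, and of 54 from 20 to 40 Mb 27. Of 54 from 40 to 60 Mb 26 were lower, and of 53 beyond 60 Mb 20. With offsets, the median for chromosome 18 was -0.186 in sgUFM1 against its own controls and 0.0118 in sgUFL1 against its own. Chromosome 3 had the highest median with offsets, 0.126, with 30.7% of 849 genes higher. Its medians against own controls were 0.161 in sgUFM1 and 0.0343 in sgUFL1. In runs of 15 neighbouring tested genes, the lowest median with offsets was -0.482 on chromosome 16 from CMIP to COTL1, where 11 of 15 genes were lower without offsets, and the highest was 0.472 on chromosome 21 from B3GALT5 to SLC37A1, where 8 were higher. These runs are the extremes of 12336 overlapping ones, of which the middle 98% lay between -0.29 and 0.244. DNA copy number was not measured.

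Each guide was also set against its own controls, by the names of the FPKM table and with all 12 libraries in the fit. In sgUFM1 446 genes were higher (2.82%) and 473 lower (2.99%) than in its controls, or 5.81% of 15821, and in sgUFL1 3213 were higher (20.3%) and 3213 lower (20.3%), or 40.6%. With offsets, chosen after the data were seen, these became 652 (4.12%) and 590 (3.73%) for sgUFM1, 7.85% together, and 972 (6.15%) and 912 (5.77%) for sgUFL1, 11.9% together. The controls for sgUFL1 had a mean GC content of 48.49% to 49.58% and those for sgUFM1 50.5% to 50.72%, so the sgUFL1 contrast carries a larger GC difference. The difference between both contrasts has the same value under the names of either table, since the exchanged libraries enter it with the same sign. It passed for 2688 genes that were higher (17%) and 2836 that were lower (17.9%), 34.9% in all. With offsets 548 (3.47%) and 713 (4.51%) passed, 7.97% together of 15815. ESM1 had the lowest value of the genes named, -4.0 (SE 0.44, adjusted p = 9.7e-05), and -4.31 with offsets. AGR2 had the highest, 2.68 (SE 0.31, adjusted p = 6.4e-05), and 2.32 with offsets, followed by EHF and MUC5AC at 2.16 and 2.16. The value of EHF missed the threshold with offsets (adjusted p = 0.15) and kept it in 4 of 12 fits that left out 1 library each, and without replicate 2 of the controls for sgUFL1 it was 1.23 (adjusted p = 0.132).

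Counts of list members in the difference of both contrasts are given side by side without and with offsets, and they share the guide libraries with the direct comparison. The large ribosomal subunit had 0 higher and 24 lower, and 0 and 20 with offsets. Oxidative phosphorylation had 0 and 36, and 0 and 33. Of the ER lists, chaperones and folding enzymes had 11 and 5 of 28, and 2 and 1, where 7.97% of all genes passed with offsets. Translocon genes had 15 and 6 of 38, and 6 and 3. Glycosylation genes had 13 and 5 of 35, and 6 and 1. Degradation genes had 8 and 1 of 26, and 5 and 0. COPII and export genes had 16 and 4 of 30, and 10 and 0. Interferon-stimulated genes had 16 and 5, and 8 and 0. Chemokines had 3 and 0 of 12, and 1 and 0. Secretory epithelial factors had 3 and 1 of 13, and 1 and 0, and mucins 1 and 0 of 4, and 1 and 0. In the chemokine list the controls differed within a group, with summed levels of 291.6, 546 and 526.7 FPKM in replicates 1 to 3 of the controls for sgUFM1 and 335.3, 598.9 and 340.3 in those for sgUFL1, against 495.7, 504 and 538.8 in sgUFM1 and 277.9, 295.7 and 308.9 in sgUFL1. The lowest 3 controls thus lay near sgUFL1 and the highest 3 near sgUFM1.

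When sgUFL1 is taken by the names of the count table, the comparison is with other libraries, those the FPKM table calls controls for sgUFM1. Then 717 genes were higher (4.79%) and 825 lower (5.51%), or 10.3% of 14977. UFL1 stood at 0.36 there (adjusted p = 0.077) and UFM1 stood at -0.47 (adjusted p = 0.0082). MUC5AC differed by 2.33 (adjusted p = 1.2e-06), ESM1 by -4.2 (adjusted p = 2.1e-05) and BDKRB2 by 1.92 (adjusted p = 0.00027). CXCL11 differed by 0.12 (adjusted p = 0.94) and CSF3 by 1.24 (adjusted p = 0.31). Of the large ribosomal subunit 0 were higher and 4 lower, and of the chaperones 7 and 1. GDF15, higher above, was lower there (-0.49, adjusted p = 0.037). G0S2 and RPL13A also changed sign, at -0.11 and 0.047, and did not pass (adjusted p = 0.88 and 0.81). Of 138 called genes named in the text, 66 kept the sign here and did not pass. The text above holds for sgUFL1 as the FPKM table names it.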

How the data were processed

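RNA-seq was run on 12 MDA-MB-231 libraries in 4 groups of 3. The authors deposited raw counts per gene and FPKM values for 58735 genes. Per the submitters' processing notes the tools named are fastp 0.20.1, STAR 2.7.7a and featureCounts 2.0.0 with GRCh38. Their roles and the strand setting are not given there.

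FPKM columns were matched to count columns over 12320 genes by their ratio after correction for gene length: 6 columns had the same name in both tables, and 6 had exchanged names. Tests were run on the deposited counts with edgeR 4.0.16 in R 4.3.3 (quasi-likelihood F test, TMM scaling, filter on low counts, Benjamini-Hochberg adjusted p under 0.05). The direct fit used 6 libraries and the contrasts with controls 12. The offsets were lowess trends of each library on GC content and then length (GENCODE 29). FPKM were used for levels per library and, in limma 3.58.1, as an alternative; DESeq2 1.42.0 was another. Scaling, filters, pseudocounts, a replicate block and each library left out were also tried. The scripts were tested on simulated data. Promoters came from RefSeq GRCh38.p14.

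The comparison, the 52 gene lists and the tests were chosen with earlier results of these data known. Genes named are the 12 highest and 12 lowest protein-coding log2 differences (groups without overlap, 1 group mean of 5 CPM or more). Added to these were the 6 largest rises and falls in FPKM and 4 and 4 of other gene types. From the difference of differences came 6 and 6 protein-coding genes that passed, with 1 group mean of 5 CPM or more. Each list gave up to 4 by smallest p. ISG15, CALR, HSPA5, RSAD2, IFI44, ERO1B, SERP1, EIF2A and SDF2L1 were added after their values were seen. Total counts of 15342793 to 18033331 per library limit the precision of genes with few counts. Guide sequences were not used here, and some genes are not reported here.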

Additional observations from a re-analysis of the deposited data

Results flagged for a closer look

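The difference between the guides was itself tested against the controls, as the change in sgUFM1 from its controls minus the change in sgUFL1 from its controls, and it passed for 2688 genes that were higher and 2836 that were lower (edgeR quasi-likelihood test). Values were ranked among protein-coding genes that passed here, had at least 5 CPM in 1 group and were tested in the direct comparison. The lowest were ESM1 at -4.0 (SE 0.44), MRPL12 at -3.3 (SE 0.39) and GPS2 at -3.04 (SE 0.37). Next came TAF10 at -2.86 (SE 0.35), CNTN1 at -2.83 (SE 0.65) and ANO2 at -2.76 (SE 0.47). MRPL12, a mitochondrial ribosomal protein, had means of 21.0 FPKM in sgUFM1, 52.0 in sgUFL1, 38.8 in the controls for sgUFM1 and 9.73 in those for sgUFL1. GPS2 and TAF10 likewise stood lowest in the controls for sgUFL1, at 0.861 FPKM each. In the direct comparison MRPL12 and TAF10 stood at -1.3 and -0.67 (adjusted p = 0.034 and 0.042), and both missed the threshold with offsets (adjusted p = 0.054 and 0.12). Each also missed it without sgUFL1 replicate 1, 2 or 3 or sgUFM1 replicate 2 (adjusted p = 0.0647 to 0.124 for MRPL12 and 0.135 to 0.181 for TAF10). MRPL12 missed it with no filter on low counts (adjusted p = 0.0898), and TAF10 by DESeq2 (0.0793), by limma with each of 3 pseudocounts (0.0558 to 0.0615) and in the single fit of all 12 libraries (0.0557). The highest values were AGR2 at 2.68 (SE 0.31), EHF at 2.16 (SE 0.76), MUC5AC at 2.16 (SE 0.22), MYO16 at 2.15 (SE 0.31), POTEC at 1.88 (SE 0.56) and TLR3 at 1.79 (SE 0.26). With offsets, EHF and POTEC missed the threshold (adjusted p = 0.154 and 0.0851) and the other 10 genes passed. EHF also missed it by DESeq2 (adjusted p = 0.056) and with no filter on low counts (0.0977). By limma on FPKM, EHF missed the threshold with a pseudocount of 0.1 (0.0572) and CNTN1 with each of 3 pseudocounts (0.0819 to 0.273).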

How the results depend on the processing

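The direct counts of 2918 higher and 2824 lower genes stayed within 1.5 times under other scalings, filters, offsets, DESeq2 and limma on FPKM. Leaving out 1 library each gave 2149 to 3237 higher and 2113 to 3358 lower. A single fit of all 12 libraries gave 1503 and 1539, and 717 and 825 were found for sgUFL1 by the names of the count table. The difference of differences fell from 2688 and 2836 to 548 and 713 with GC and length offsets, and ran from 1980 to 3042 and from 2059 to 3281 with 1 library left out. Of 2471 values of 138 called genes named in the text, 2344 kept direction and call, 123 lost the call (66 under the count table's names, 27 in the fit of all 12 libraries) and 4 changed sign. Those were G0S2 (-0.115), GDF15 (-0.491, which passed in that direction at adjusted p = 0.0366) and RPL13A (0.0469) under the count table's names and SDF2L1 (0.00778) under offsets. The cause was not tested. Genes with few counts limit what these depths can show.

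With the replicate number as a block, 2484 genes were higher and 2417 lower in the direct comparison, and 2834 and 2970 in the difference of differences. Same-numbered sgUFM1 and sgUFL1 libraries did not deviate together (correlations -0.0583, -0.0554 and -0.00925), so the replicate block pairs libraries by number only. No sgUFM1 library correlated best with its own number.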
